A study of Mus musculus with 12 samples.

Results

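MicroRNA levels in epididymal fat were compared between mice exposed to a high-fat diet from mating to weaning (UL) and mice kept on a control diet (CD). The comparison took the 3 UL pools and the 3 CD pools, 6 of the 12 pools in the series, and covered 504 microRNA assays, of which 495 had a value in all 6 pools. By limma, 3 microRNAs passed an adjusted p of 0.05 and all were higher in UL: miR-494, miR-291b-5p and miR-135b-3p. Of these only miR-494 was measured in every control pool, and it did not pass in a fit of the 495 microRNAs alone (limma adjusted p = 0.13). MiR-291b-5p and miR-135b-3p had a value in a single control pool, so no spread of their own between controls enters their tests. Among the 495 microRNAs measured in every pool the median difference was -0.07 cycles, and 95.8% differed by less than 1 cycle, which is 2-fold when the PCR doubles its product. Of the 14 microRNAs with an unadjusted p under 0.05, 11 lay in a pair of stretches of 19 and 7 assays. The assays of a stretch neighbour each other in the order of the microRNAs' accession numbers. Both stretches were chosen after the values were seen, so this share describes them and tests nothing. In the larger stretch CD 1 and CD 2 stood apart from CD 3.

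All mice were male C57BL/6J wild type and were killed at 23 weeks, so they carried no altered allele. The high-fat diet held 45% of its energy as fat and 35% as carbohydrate, the control diet held 10% and 70%, and both held 20% as protein. CD mice ate the control diet in every period (22 mice from 17 litters). UL pups met the high-fat diet through the dam, in utero and in lactation (25 mice from 19 litters), and the labels name no high-fat diet for them after weaning. A further pair of groups shares the model fitted here, namely UT, whose exposure ended at birth, and WL, whose exposure went on until death. From each group 12 mice were pooled into 3 samples, so animals cannot be told apart. The labels do not say which litters entered which pool, and the p-values therefore measure the spread between pools.

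MicroRNAs are short RNAs cut from hairpin precursors. Either arm of the hairpin, named 5p or 3p, can be loaded into the silencing complex, where it lowers the translation and stability of messenger RNAs that pair with its seed. MicroRNAs with the same seed are grouped as a family because they can pair with the same sites. In fat tissue they are known for steering the formation of fat cells from precursors, insulin signalling and the handling of lipids, and epididymal fat is a visceral depot that in the mouse lies beside the testis and epididymis.

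The sequences at the centre of the results follow, from RefSeq for the mouse build GRCm38.p6, written 5′ to 3′ with the seed (bases 2 to 8) in capitals. A RefSeq mature sequence was matched for 413 of the 504 assays, which held 333 different seeds. The first 4 are the called microRNAs and the opposite arm of the miR-494 hairpin.
miR-494 (3p arm): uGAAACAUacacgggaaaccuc
miR-494-5p: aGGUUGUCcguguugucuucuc
miR-291b-5p: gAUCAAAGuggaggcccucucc
miR-135b-3p: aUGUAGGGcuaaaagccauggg
The next 3 show how close miR-291b-5p is to miR-291a-5p and miR-20b-5p to miR-20a-5p, pairs whose differences lay far apart.
miR-291a-5p: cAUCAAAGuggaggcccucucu
miR-20b-5p: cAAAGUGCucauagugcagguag
miR-20a-5p: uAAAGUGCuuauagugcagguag
The last 5 belong to stem cell clusters, where miR-302b-5p and miR-302c-5p share a seed with miR-302d-5p, and miR-302d-3p has its seed in register with miR-302b-3p.
miR-302b-5p: aCUUUAACaugggaaugcuuucu
miR-302c-5p: gCUUUAACaugggguuaccugc
miR-302d-5p: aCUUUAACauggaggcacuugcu
miR-302d-3p: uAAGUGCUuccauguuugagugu
miR-302b-3p: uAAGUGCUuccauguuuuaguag

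The values are threshold cycles (Ct), where a lower Ct stands for more template. The level used here is the mean Ct of a pool over the 466 microRNAs measured in all 12 pools, minus the Ct of the microRNA, in cycles on a log2 scale. Between 499 and 504 microRNAs had a value in each of the 6 pools, and the median Ct of a pool lay between 25.00 and 25.20. Between 13 and 24 microRNAs a pool came at Ct 32 or later, and no more than 6 at Ct 35 or later. Pearson's r between pools over the 495 microRNAs was 0.970 to 0.972 within CD, 0.981 to 0.982 within UL and 0.956 to 0.977 between the groups. The reference RNA U6-snRNA stood at 9.56 ± 0.15 in CD and 9.55 ± 0.12 in UL (SD, n = 3 each). RNU-43 stood at 7.48 ± 0.31 and 7.12 ± 0.33, so scaling to it moved the median difference of all microRNAs from -0.07 to 0.30, and differences below are relative to the average microRNA.

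CD 1 and CD 2 stood apart from CD 3 for a run of assays. In the stretch from miR-543 to miR-376b-5p in accession order, chosen after the values were seen, 14 of 19 assays had values in all 12 pools. Their median deviation from the 12-pool mean was -1.57 cycles in CD 1 and -2.54 in CD 2, against 0.40 in CD 3 and 0.40, 0.42 and 0.71 in UL 1, UL 2 and UL 3. The UT pools lay at 0.06 to 0.33 and the WL pools at 0.10 to 0.67. CD 3 therefore lay with the pools of the high-fat groups, and results within this stretch are also given with CD 1 and CD 2 left out, an alternative chosen after seeing the data that leaves CD at n = 1. The authors' deposited fold column for UL equals the mean of UT 2, UT 3 and UL 1 over CD. Whether that column or the labels of these pools are in error cannot be told from the files, and if the labels are, UL would stand for other pools in every value below.

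Called by limma at an adjusted p under 0.05 were 3 of 504 microRNAs (0.595%), 3 higher and 0 lower in UL. Of the 495 measured in all 6 pools, 1 was called (0.202%), which was miR-494. When only those 495 were fitted and adjusted for, 0 were called. At an unadjusted p under 0.05 there were 14 (2.78%), of which 13 were higher (2.58%) and 1 lower (0.198%). The 3 CD values and the 3 UL values did not overlap for 39 of the 495 (7.88%), with UL higher in 18 (3.64%) and lower in 21 (4.24%). Scaled to RNU-43 that split was 45 higher and 1 lower, and in the authors' deposited normalized values, with their direction turned, it was 14 and 36.

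MiR-494 is the 3p arm of a hairpin in the imprinted Dlk1-Dio3 cluster, a large group of microRNAs expressed from the maternal chromosome (chr12:109715367-109715388, plus strand, GRCm38.p6). Its Ct was 25.11, 34.04 and 34.37 in CD 1, CD 2 and CD 3 and 20.00, 19.82 and 20.04 in UL 1, UL 2 and UL 3. The UL pools lay close together and above every CD pool, whereas CD 1 stood far above CD 2 and CD 3. Here CD 3 lay with CD 2, unlike in the stretch as a whole. The level was -6.35 ± 5.23 in CD and 4.98 ± 0.16 in UL (SD, n = 3 each), a difference of 11.33 cycles (SE 1.99, 95% interval 6.85 to 15.81, limma adjusted p = 0.0435). The miR-494 difference was 14.35 cycles without CD 1 (limma adjusted p = 1.91e-08), 9.88 without CD 2 (adjusted p = 0.144) and 9.76 without CD 3 (adjusted p = 0.0692). Leaving out any UL pool ended the call (limma adjusted p = 0.203 to 0.227). So did a fit of only the 495 microRNAs measured in all 6 pools, where the miR-494 difference was the same (limma adjusted p = 0.13). With values at Ct 32 or later treated as missing, CD 1 alone remained in CD and the miR-494 difference was 5.29; with CD 1 and CD 2 left out, CD 3 alone remained and it was 14.46. The call held in 7 of 14 other processing settings, these included, and in 4 of 12 fits that left out a pool. In WL the 3 pools stood at 5.05 to 5.31, close to UL, and UT gave a single value of 2.07 with no value in UT 1 and UT 2.

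The opposite arm, miR-494-5p, was not called, and its difference had the other sign. Its levels were -2.96, -3.22 and -2.53 in CD and -3.68, -3.49 and -3.22 in UL, so all UL pools lay below all CD pools. The difference was -0.56 cycles (SE 0.30, limma adjusted p = 0.995).

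MiR-291b-5p, of the miR-290 to miR-295 cluster that is known from embryonic stem cells, lies at chr7:3219494-3219515 (plus strand, GRCm38.p6). It had a value in CD 1 alone among the control pools, at Ct 35.92, and came at Ct 27.97, 27.75 and 27.53 in UL 1, UL 2 and UL 3. The 3 UL pools were close together and far from that single late value. The difference was 8.30 cycles, with CD n = 1 and UL n = 3. It was counted as called, but the assay's own spread came from the high-fat groups alone. The test therefore holds no measure of how control pools vary for miR-291b-5p. With the missing values set to the latest Ct in the table the difference was 9.02 (SE 1.96, limma adjusted p = 0.164). Without values at Ct 35 or later no CD value remained and the difference could not be fitted.

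MiR-291a-5p, encoded in the same cluster, has the same seed and differs from miR-291b-5p by 2 substitutions, C1G and U22C (the base of miR-291a-5p first, positions counted from the 5′ end). Its level was 4.75 ± 0.40 in CD and 4.56 ± 0.43 in UL (SD, n = 3 each), a difference of -0.19 (SE 0.49). MiR-291a-5p came at a mean Ct of 20.23 and miR-291b-5p at 29.79. Cross-reaction between assays of near-copies was not tested.

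MiR-135b-3p, from chromosome 1 (chr1:132198142-132198163, plus strand, GRCm38.p6), had a value in CD 3 alone among the control pools, at Ct 36.69. In UL 1, UL 2 and UL 3 it came at Ct 32.26, 32.46 and 32.77, which is late as well. The difference was 4.24 cycles, with CD n = 1 and UL n = 3. It was counted as called, but here too the test holds no measure of how control pools vary for the assay. Unlike miR-494 and miR-291b-5p, it lies outside the 2 accession stretches described further on. Over the other settings that gave a value the difference ranged from 3.02 to 4.71. No fit was possible without CD 3 or with values at Ct 35 or later treated as missing, since either removes the single control value, and the trended and robust variance model ended the call (limma adjusted p = 0.069). Its opposite arm, miR-135b-5p, stood at -3.95 ± 0.87 in CD and -3.47 ± 0.62 in UL (SD, n = 3 each), a difference of 0.47 (SE 0.88).

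**Figure D1:**
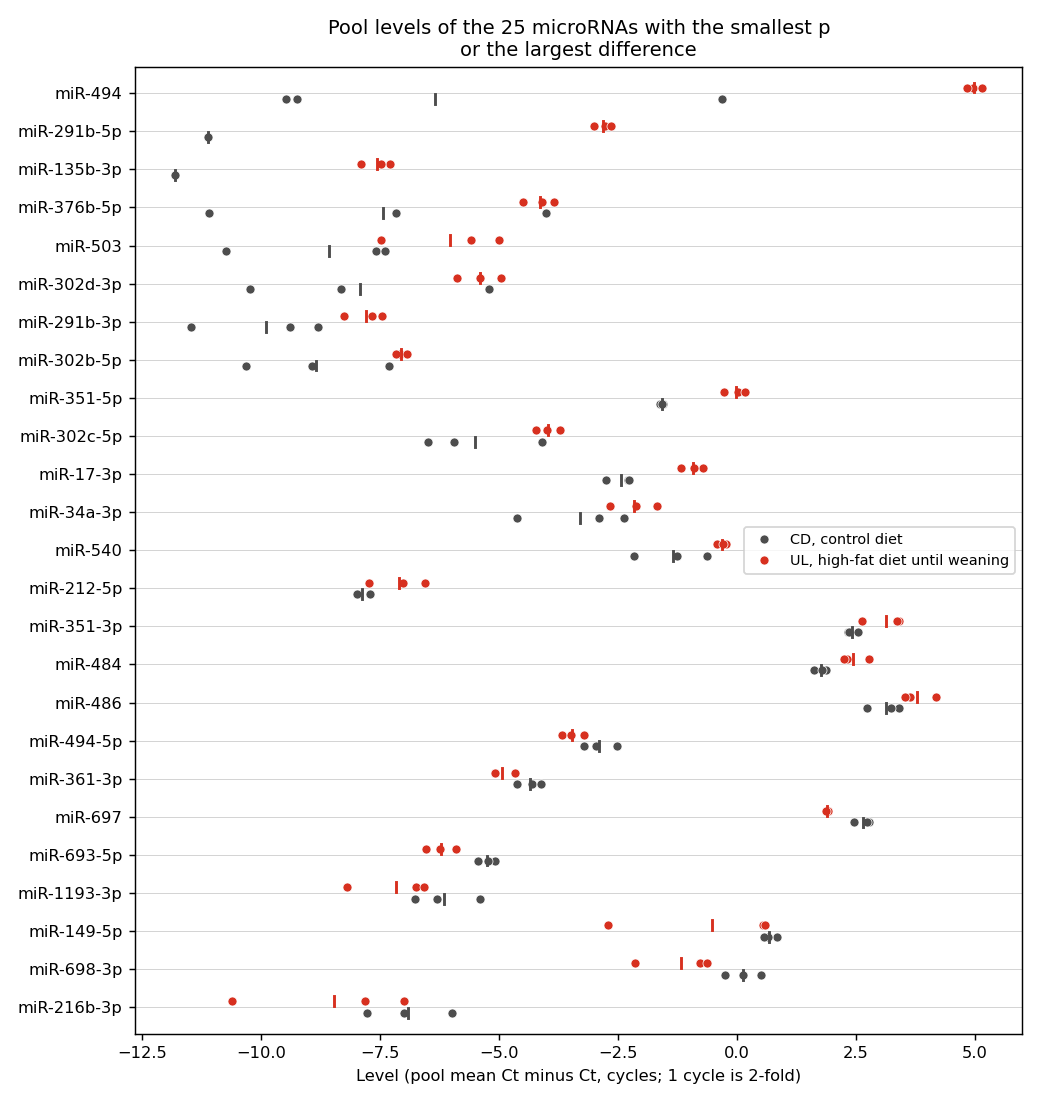
Levels in each pool (x axis, cycles relative to the pool mean; y axis, microRNA) of the 25 microRNAs that passed the threshold, had the 20 smallest p or had the 5 highest or 5 lowest differences among those with values in all 6 pools; points are pools and ticks are group means. In upper rows such as miR-494 the CD points are spread over several cycles and the UL points lie close together (CD -9.48 to -0.31, UL 4.83 to 5.15). MiR-291b-5p and miR-135b-3p have 1 CD point each.

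MiR-20b-5p, an X-linked member of the family of miR-17, resembled miR-291b-5p and is named after its values were seen. It had a value in CD 1 alone among the control pools, at Ct 34.53, and came at 28.70, 27.82 and 28.10 in UL. The difference was 6.46 cycles (SE 1.11, limma adjusted p = 0.0685), and like that of miR-291b-5p it has no value without CD 1. MiR-20a-5p, which shares its seed and differs from it by U1C and U10C (the base of miR-20a-5p first), stood at 3.27 ± 0.37 in CD and 3.12 ± 0.53 in UL (SD, n = 3 each), a difference of -0.15 (SE 0.59).

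Gaps between near-copies were mostly small. Among mature sequences of equal length, 39 pairs over 50 microRNAs differed by 1 or 2 substitutions. The median gap between the UL minus CD differences of a pair was 0.35 cycles. Between the opposite arms of 126 hairpins it was 0.33 cycles, so a gap of this size is not particular to near-copies. The gap was under 0.5 cycles in 27 pairs and reached 1 cycle in 6. Of those 6, 1 held miR-291b-5p, 3 held miR-20b-5p, 1 was miR-103-3p with miR-107-3p and 1 was miR-30a-3p with miR-30e-3p. MiR-107-3p, which with miR-103-3p is known for its effect on insulin sensitivity, stood at -0.22, -1.34 and -0.09 in CD and -0.24, 0.85 and 1.36 in UL, so the groups overlapped (difference 1.21, SE 0.79).

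MiR-690 was among the most abundant assays and was missing in CD 1 and CD 2. It came at Ct 15.60 in CD 3 and at 15.99, 15.17 and 16.51 in UL, so the missing values stood beside very early ones. Of the 9 microRNAs with a gap in the 6 pools, 7 lacked values in CD pools only and 2 in UL pools only; 12 values were missing in CD and 2 in UL. The difference for miR-690 was -0.24 (SE 0.67, CD n = 1).

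Among the microRNAs measured in all 6 pools, those with differences next in size came late and did not pass. MiR-376b-5p, of the Dlk1-Dio3 cluster, stood at -7.18, -11.11 and -4.02 in CD and -4.11, -4.51 and -3.84 in UL. Its CD 3 level lay among the UL levels, while CD 1 and CD 2 lay below every UL pool. The miR-376b-5p difference was 3.28 (SE 1.25, limma adjusted p = 0.995), and it was 3.41 without CD 1, 1.45 without CD 2 and 4.99 without CD 3 (limma adjusted p = 0.0177). With CD 1 and CD 2 left out it was -0.13. The opposite arm, assayed as miR-376b, had a difference of 0.52 (SE 0.33).

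The cluster of miR-302 and miR-367, known from pluripotent cells, was measured by 9 assays, 7 of them above 0, with a median difference of 1.53 against -0.07 over all microRNAs. That median was 0.96 without CD 1, 2.24 without CD 3, -0.07 with CD 1 and CD 2 left out and -0.09 with values at Ct 32 or later treated as missing. By limma 0 were called and 3 of 9 had an unadjusted p under 0.05, against 2.78% of all microRNAs. MiR-302d-3p stood at -8.32, -10.25 and -5.21 in CD and -4.96, -5.88 and -5.40 in UL (difference 2.52, SE 0.97, limma adjusted p = 0.995). MiR-302b-5p stood at -8.94, -10.32 and -7.32 in CD and -7.08, -6.94 and -7.18 in UL (difference 1.80, SE 0.58, adjusted p = 0.609). As in the stretch as a whole, CD 3 was the highest control pool for both. Without CD 3 the differences of miR-302d-3p and miR-302b-5p were 3.87 and 2.56 (limma adjusted p = 0.0177 each), without CD 1 they were 2.32 and 1.75, and without CD 2 they were 1.36 and 1.07. With CD 1 and CD 2 left out, miR-302d-3p stood at -0.20 and miR-302b-5p at 0.26. MiR-302d-5p, on the opposite arm of the hairpin of miR-302d-3p and earlier at a mean Ct of 25.87, stood at -0.91 ± 0.59 in CD and -1.06 ± 0.28 in UL (SD, n = 3 each).

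The X-linked cluster of miR-322, miR-351 and miR-503, which is known in muscle differentiation and the cell cycle, was measured by 11 assays with 6 above 0 and a median of 0.03. Its 3 highest members by level included both arms of miR-351. MiR-351-5p stood at -1.55, -1.63 and -1.57 in CD and -0.28, 0.02 and 0.17 in UL, without overlap and with the CD pools close together. The difference was 1.56 (SE 0.48, limma adjusted p = 0.519), ranging from 1.46 to 1.68 when each of the 6 pools was left out. The call turned on pools outside the comparison, since miR-351-5p passed without WL 3 (limma adjusted p = 0.019), in a fit of the 6 pools alone (adjusted p = 0.045) and with array weights (adjusted p = 0.0204). MiR-351-3p was also higher in every UL pool, at 2.34, 2.35 and 2.55 in CD and 3.41, 2.63 and 3.37 in UL (difference 0.73, SE 0.35, limma adjusted p = 0.995). MiR-503 had a difference of 2.55 (SE 0.90), with CD 1 at Ct 35.54 and UL 3 at Ct 32.35, level with CD 2 and CD 3 at 32.38 and 32.28. The miR-503 difference was 1.47 without CD 1, 1.37 with CD 1 and CD 2 left out and 0.53 with the neighbour median subtracted, as described further on. MiR-322-5p, which like miR-503 belongs to the wider family of miR-16, had -0.30 (SE 0.43).

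MiR-17-3p, of the miR-17 to miR-92a cluster, which promotes cell proliferation, stood at -2.29, -2.76 and -2.27 in CD and -1.17, -0.72 and -0.91 in UL, again without overlap (difference 1.51, SE 0.43, limma adjusted p = 0.46). The other arm, miR-17-5p, had 0.69 (SE 0.67), and its cluster mates miR-20a-5p and miR-92a-3p had -0.15 and 0.22. Of the 9 assays of the cluster 5 lay above 0, with a median of 0.04, and 0 were called. MiR-484, a microRNA transcribed from its own promoter, stood at 1.63, 1.88 and 1.79 in CD and 2.77, 2.31 and 2.25 in UL (difference 0.68, SE 0.28, limma adjusted p = 0.995). MiR-486, abundant in red cells and muscle, had 0.65 (SE 0.33), and its opposite arm had -0.04 (SE 0.30).

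Lower levels in UL were smaller and none passed. The 5 lowest differences among the 495 were -1.56 for miR-216b-3p, -1.31 for miR-698-3p, -1.21 for miR-149-5p, -1.02 for miR-1193-3p and -0.97 for miR-693-5p. MiR-698-3p stood at 0.14, 0.50 and -0.25 in CD and -0.78, -0.64 and -2.14 in UL, without overlap (SE 0.51, limma adjusted p = 0.995), and the miR-698-3p difference was -0.83 without UL 3. That of miR-1193-3p was -0.51 without UL 2 and -0.64 without CD 2. MiR-149-5p, described as a repressor in the Akt and mTOR pathway, was set apart in UL 1 alone, at -2.72 against 0.55 and 0.59 in UL 2 and UL 3 and 0.56 to 0.85 in CD, and its difference was -0.11 without UL 1. MiR-216b-3p likewise came at Ct 35.49 in UL 3 against 32.78 and 31.98 in UL 1 and UL 2, and its difference was -0.49 without UL 3. MiR-697 had UL pools close together, at 2.45, 2.77 and 2.73 in CD and 1.91, 1.92 and 1.86 in UL (difference -0.75, SE 0.37, limma adjusted p = 0.995).

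**Figure D2:**
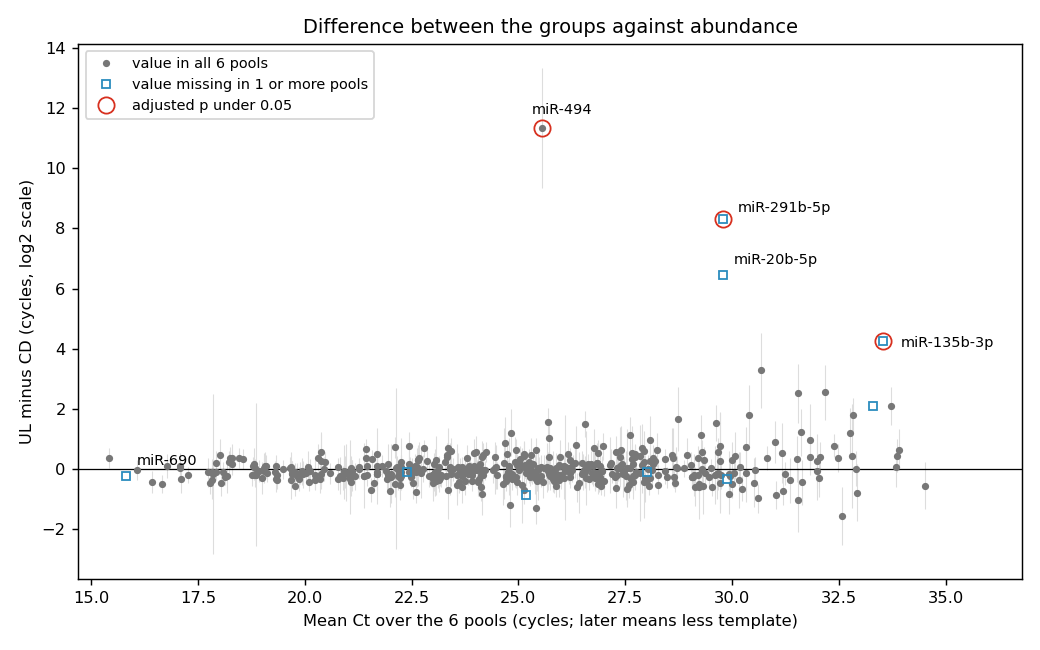
Difference between the groups (y axis, cycles) against the mean Ct over the 6 pools (x axis, cycles) for 504 microRNAs; bars are standard errors, shown for microRNAs with values in all 6 pools. Among microRNAs with values in all 6 pools, points crowd near 0 up to a mean Ct of 30. From 30 to 32, 5 of 27 differ by 1 cycle or more, and from 32 on 13 of 17 lie above 0. None of them with a mean Ct under 24 differs by 1 cycle or more.

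Precision was set by the number of pools and by abundance. The median SE of a difference was 0.43 cycles, and its 95% interval lay within 1 cycle of 0 for 131 of the 495 microRNAs (26.5%) and within 2 cycles for 404 (81.6%). Differences of 2-fold could therefore be bounded for the minority of assays. By mean Ct, 0 microRNAs under 24 cycles differed by 1 cycle or more, against 5 of 27 between 30 and 32 and 5 of 17 from 32 on. At those late cycles the median SD between CD pools was 0.72 and 0.90, against 0.33 to 0.41 at earlier cycles. The median SD was 0.37 in CD and 0.39 in UL over all 495.

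Across the abundant microRNAs differences were small. The 5 highest by level among those measured in all 6 pools were miR-712-5p, miR-714, let-7b-5p, let-7c-5p and miR-706, with differences of 0.37, -0.03, -0.43, -0.50 and 0.09. Let-7c-5p, of the let-7 family that restrains growth and insulin signalling genes, stood at 8.11, 8.74 and 8.62 in CD and 7.86, 8.25 and 7.83 in UL (SE 0.30). Let-7b-5p stood at 8.53, 8.83 and 8.63 in CD and 8.43, 8.28 and 7.98 in UL, without overlap (SE 0.38, limma adjusted p = 0.995). Of the 9 let-7 guide strands, 7 lay below the median of all microRNAs when scaled to the pool mean, the pool median, RNU-43 or the deposited values and 5 when quantile normalized. Their median was -0.12, and 0 were called by limma (0 at an unadjusted p under 0.05).

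Lists of microRNAs were described by count and median, beside 220 of 504 above 0 and a median of -0.07 over all. Of 25 lists, 23 had 0 members called by limma, and 19 of these had 0 members at an unadjusted p under 0.05. The medians of 24 lists lay within 0.2 cycles of the median of all microRNAs, the exception being the cluster of miR-302 and miR-367.

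Of the microRNAs described as repressors of mTOR, its partners or activators, 11 were measured, 3 above 0 and 8 below, with a median of -0.23 (0.14 when scaled to RNU-43, where the median of all was 0.30). MiR-100-5p, which represses mTOR, stood at 5.12, 4.80 and 5.09 in CD and 4.78, 4.37 and 4.50 in UL, without overlap (difference -0.45, SE 0.29, limma adjusted p = 0.995). Its family member miR-99a-5p, which has the same seed and differs by A16U (the base of miR-100-5p first), had 0.09 (SE 0.33), and miR-199a-3p had -0.20 (SE 0.38).

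Of 20 microRNAs described as promoting fat cell formation 8 lay above 0 (median -0.09), and of 14 described as restraining it 7 did (median 0.00). In the miR-30 family, which favours fat cell formation, all 5 guide strands lay below the median of all microRNAs, or 4 of 5 when quantile normalized. MiR-30c-5p, miR-30d-5p and miR-30a-5p had -0.11, -0.21 and -0.17 (SE 0.33, 0.39 and 0.44), each smaller than its SE. The restraining miR-27a-3p and miR-27b-3p had 0.06 and -0.09 (SE 0.52 and 0.53). Of 15 linked to brown or beige fat 4 lay above 0 (median -0.09), of 13 linked to insulin signalling and lipids 6 did (median -0.07), and of 10 linked to inflammation 4 did (median -0.07). MiR-29a-3p and miR-29c-3p, which differ by C10U (the base of miR-29a-3p first) and repress matrix and insulin signalling genes, had -0.24 and 0.45 (SE 0.56 and 0.54).

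**Figure D3:**
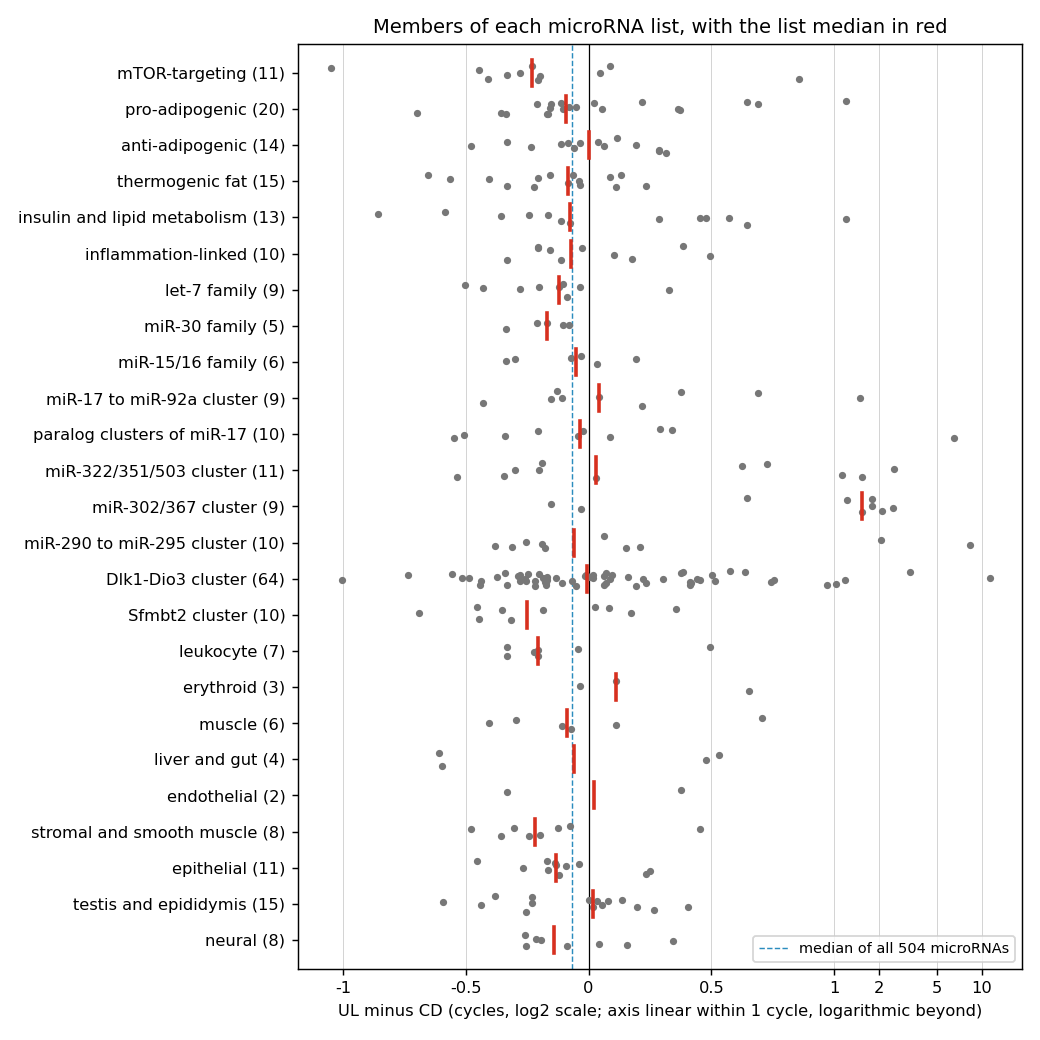
Differences between the groups (x axis, cycles, linear within 1 cycle and logarithmic beyond) for the members of each of 25 lists (y axis, number of assays in brackets); grey points are microRNAs, red bars list medians and the dashed line the median of all 504. Medians lie near the dashed line except for the cluster of miR-302 and miR-367 at 1.53.

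Markers of other cells were read beside these values, because in whole tissue fewer cells of a type and less RNA per cell cannot be told apart. No microRNA marks fat alone, and miR-26a-5p and miR-103-3p, both linked to fat cells, were abundant, at 7.80 and 3.81 over the 6 pools. Leukocyte microRNAs had a median of -0.21 (1 of 7 above 0), stromal and smooth muscle -0.22 (1 of 8), epithelial -0.13 (2 of 11), neural -0.14 (3 of 8), muscle -0.09 (2 of 6), erythroid 0.11 (2 of 3), liver and gut -0.06 (2 of 4), endothelial 0.02 (1 of 2) and testis and epididymis 0.02 (9 of 15); 0 were called in any of these lists by limma, and 0 had an unadjusted p under 0.05. Epithelial microRNAs varied more between pools than between groups: the median deviation of the 11 was 0.77, -1.28 and 0.40 in CD 1, CD 2 and CD 3 and 0.05, -0.19 and 0.37 in UL. MiR-205-5p, a marker of squamous and glandular epithelium, stood at 5.20, 1.93 and 4.80 in CD and 4.57, 3.17 and 3.81 in UL. CD 2 was also the control pool with the lowest levels in the stretch from miR-543, and the part of tissue composition in that was not tested.

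The Dlk1-Dio3 cluster was measured by 64 assays, 32 above 0 and 32 below, with a median of -0.01; 1 was called, miR-494 (0.595% of all microRNAs were called), and 1 further had an unadjusted p under 0.05, miR-376b-5p (2.78% of all did). Its most abundant members in all 6 pools, miR-1906, miR-667-3p and miR-770-3p, had -0.17, 0.24 and -0.05 (SE 2.67, 0.37 and 0.41, the first widened by a UT pool). Of the Sfmbt2 cluster, which lies in an intron of another imprinted gene, 10 assays were measured, 6 below 0, with a median of -0.25, and the UL pools lay below all CD pools in 3 of them, against 4.24% of the 495. MiR-466f stood at 3.99 ± 0.13 in CD and 3.67 ± 0.14 in UL (SD, n = 3 each; difference -0.32, SE 0.39). The miR-290 to miR-295 cluster had 10 assays, 5 above 0, with a median of -0.06; apart from miR-291b-5p and miR-291b-3p its values lay between -0.38 and 0.21. The difference of miR-291b-3p was 2.09 (SE 0.62), with 1.30 without CD 2 and 1.59 with CD 1 and CD 2 left out.

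Differences followed the order of the microRNAs' accession numbers, which were given out as sequences were registered. Members of a cluster can lie side by side in that order, as those of miR-302 do in the larger stretch described below. Between assays next to each other in that order, with a different hairpin and a different seed, the UL minus CD differences had a Spearman rho of 0.37 over 437 pairs, and 0.39, 0.22, 0.10 and -0.16 at 2, 5, 10 and 50 places apart. The same held within groups, where single pools' deviations from their group mean had a rho of 0.17 to 0.38 between adjacent assays. Pairs were not chosen to lie in different clusters, and miR-302c-3p and miR-302d-3p are neighbours with different seeds. The pairs also share the pools, and neighbouring assays are not independent measurements. The sources used here do not give the place of each assay during the PCR, and its part was not tested.

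A pair of stretches held most of the larger differences. From miR-543 to miR-376b-5p, 19 assays of 15 hairpins all lay above 0 (0.42 to 11.33, median 1.80), and they held 9 of the 14 microRNAs with an unadjusted p under 0.05. From miR-350-3p to miR-17-3p, 7 assays of 6 hairpins all lay above 0 (0.56 to 1.56, median 0.86) and held 2 of the 14. The second stretch did not rest on late cycles, with mean Ct from 20.37 to 26.57, and its median deviations were 0.03, -0.15 and -0.59 in CD and 0.03, 1.10 and 0.61 in UL, so UL 1 lay level with CD 1. Across the UT pools these deviations spanned -0.94 to 0.15, and across the WL pools -1.70 to 1.10.

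Members of a cluster differed by whether they lay in these stretches. For the cluster of miR-302 and miR-367, 6 assays inside had a median of 1.80 and 3 outside had -0.03. For the miR-322, miR-351 and miR-503 cluster, 4 inside had 1.34 and 7 outside had -0.20, and for the Dlk1-Dio3 cluster 6 inside had 1.08 and 58 outside had -0.06. Both assays of miR-17 had 0.69 and 1.51, against a median of -0.11 over the other 7 of that cluster. The stretches were chosen after the values were seen, so their counts and medians describe them and test nothing.

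The arms of hairpins were also set against accession order. Over 126 hairpins with both arms measured in all 6 pools, the differences of the arms had a Spearman rho of 0.12, and 65 pairs had the same direction. Over 30 hairpins whose arms neighbour each other in accession order rho was 0.53, and over 95 whose arms lie more than 10 places apart it was -0.03. MiR-494 and miR-494-5p, and miR-302d-3p and miR-302d-5p, are arms of the latter kind. The neighbouring arms include those of miR-17, miR-302c and miR-542, from the stretches chosen after the values were seen. The sets were not matched for abundance, and its part in the gap between them was not tested.

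**Figure D4:**
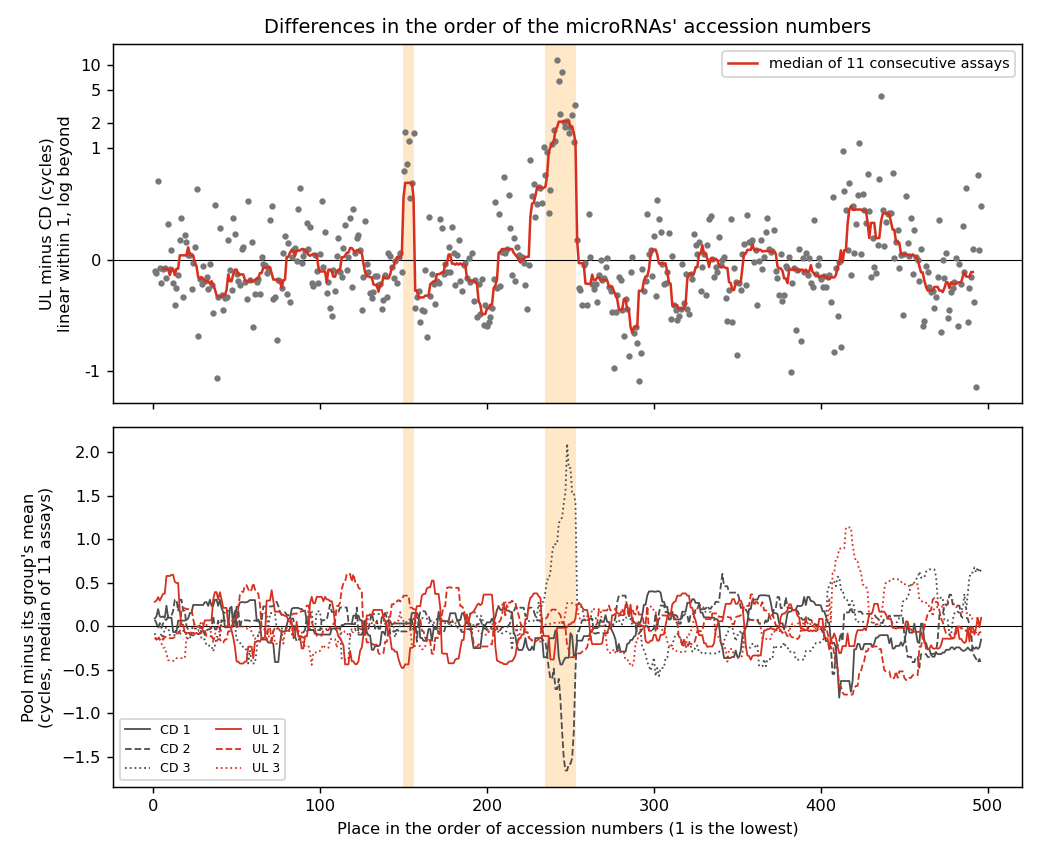
Upper panel, difference between the groups (y axis, cycles, linear within 1 cycle and logarithmic beyond) for each assay in the order of accession numbers (x axis, place), with the median of 11 consecutive assays in red; lower panel, the same running median of each pool's deviation from its group mean. Shaded are the stretches of 7 and 19 assays, and in the wider one CD 3 lies above and CD 2 below their group mean.

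With the median deviation of the 10 nearest assays subtracted in each pool, an alternative chosen after seeing the data, 2 microRNAs were called by limma, miR-291b-5p at 5.97 (SE 0.49, adjusted p = 0.00484) and miR-135b-3p at 3.94 (SE 0.59, adjusted p = 0.0297). The difference of miR-494 was 9.70 (SE 2.28, adjusted p = 0.236). MiR-291b-3p, miR-302b-5p and miR-302c-5p then stood at -0.45, -0.67 and -0.57, and miR-351-5p and miR-17-3p at 1.10 and 1.35. In the stretch from miR-543, neighbouring assays include members of the same cluster, such as those of miR-302. A difference shared by a cluster is then subtracted as well. These values therefore cannot separate it from a difference that follows accession order.

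Against the other high-fat groups UL showed no called difference. By limma, 0 of 504 microRNAs passed for UL against UT (0.0% called, 40 at an unadjusted p under 0.05, lowest adjusted p = 0.0607) and 0 for UL against WL (0.0% called, 27 at an unadjusted p under 0.05, lowest adjusted p = 0.805). The called miR-291b-5p stood at -2.81 ± 0.18 in UL, -2.90 ± 0.58 in WL (SD, n = 3 each) and -3.28 in the single UT pool with a value. MiR-135b-3p stood at -7.56 ± 0.31 in UL, -7.59 ± 0.09 in UT and -6.73 ± 0.62 in WL (SD, n = 3 each). For both, the single control value lay below the high-fat groups. MiR-135b-3p also had an unadjusted p under 0.05 for UL against WL, where WL was higher, and it did not pass adjustment (limma adjusted p = 0.805). UL had the highest group mean for miR-351-5p and miR-17-3p, at -0.03 and -0.93, against -1.10 and -1.95 in UT and -0.81 and -1.66 in WL. Neither difference passed (limma adjusted p = 0.601 each against UT and 0.805 each against WL). The WL pools lay far apart in the stretch that holds both microRNAs. Its median deviations were 0.69, 1.10 and -1.70 in WL 1, WL 2 and WL 3, against 0.03, 1.10 and 0.61 in UL 1, UL 2 and UL 3.

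**Figure D5:**
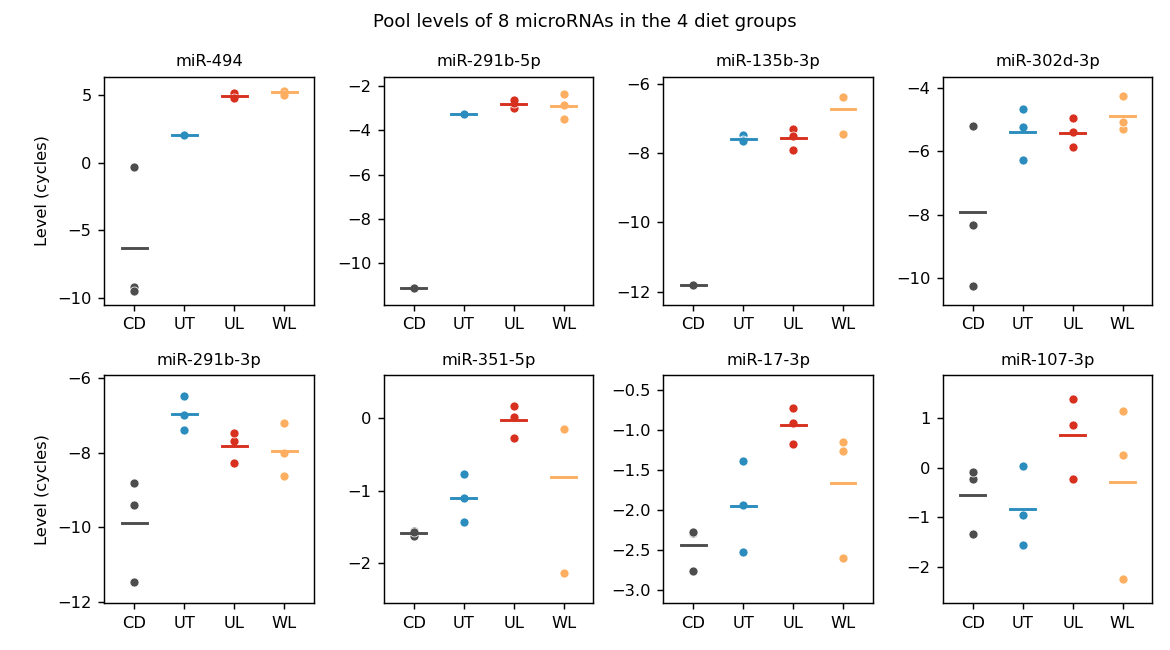
Levels (y axis, cycles relative to the pool mean) of 8 microRNAs in the pools of the 4 diet groups (x axis); points are pools and bars group means, with fewer than 3 points where a value is missing. For miR-494 the CD pools lie between -9.48 and -0.31 and the UL and WL pools between 4.83 and 5.31; for miR-351-5p, UL is the highest group mean at -0.03.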

How the data were processed

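Epididymal fat RNA of 12 pools, 3 in each of 4 diet groups, was measured by microRNA qPCR. The deposited table holds, per its headers, a threshold cycle (Ct) and a normalized ratio from the authors for every pool, with fold changes between groups. The deposited ratio runs opposite to its header, as a power of 2 of Ct minus a constant, and the deposited UL fold column equalled the mean of UT 2, UT 3 and UL 1 over CD in 506 of 506 assays (within 0.001 log2), so neither was used as a main value. The sources used here do not give the instrument or its plate layout. A repeated row was dropped, which left 504 microRNAs and 2 reference RNAs. Levels were fitted by limma 3.58.1 in R 4.3.3 over all 12 pools, with group means, missing values left missing and Benjamini-Hochberg adjustment over 504 microRNAs. The script was tested on simulated data. Named microRNAs were those called and, among those in all 6 pools, the 20 with the smallest p, the 5 highest and 5 lowest differences, the 5 most abundant and the 3 most abundant of each list, with opposite arms and the reference RNAs. Others named beside near-copies or clusters were chosen after their values were seen. Members and lists were chosen with earlier results of these data known. Alternatives changed the scaling, missing and late values, the variance model, the replicate block and each pool in turn. Precision is limited by the number of pools. A list of microRNAs is not reported here.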

Additional observations from a re-analysis of the deposited data

How the results depend on the processing

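For UL against CD, 3 microRNAs were called by limma. The count was 5 scaled to RNU-43, 6 with array weights, 1 with Ct 32 or later missing, 1 with missing values set to the latest Ct, 1 with a trended and robust variance, 1 with the 2 stretches left out (chosen after seeing the data), and 0 with Ct 35 or later missing or with microRNAs in all 6 pools only. It was 2 to 6 when each pool was left out, with 6 without CD 3. Of those 6, only miR-291b-5p was among the 3 called with every pool. The others were miR-20b-5p, miR-302b-5p, miR-302c-3p, miR-302d-3p and miR-376b-5p, and miR-494 was not called. Among microRNAs in all 6 pools, 1 was called: 2 with RNU-43, 3 with array weights, 0 with microRNAs in all 6 pools only, Ct 35 or later missing, the latest Ct, trended variance, the neighbour median subtracted, the stretches left out or the replicate block, and 0 to 4 when a pool was left out. The other contrasts were counted over the named microRNAs alone. Among these, UL against UT had 0 called, 1 with Ct 32 or later missing and 0 to 1 when a pool was left out. UL against WL had 0 of the named microRNAs called in each setting. Ranges that did not overlap numbered 39, and 66 to 122 with a pool left out, as fewer pools overlap less. UL was higher in 18, in 45 with RNU-43, in 29 with the neighbour median subtracted and in 27 to 53 with a pool left out; it was lower in 21, in 1 with RNU-43, in 36 with the deposited values and in 39 to 69 with a pool left out. The direction turned for miR-291b-3p (-0.45), miR-302b-5p (-0.67) and miR-302c-5p (-0.57) with the neighbour median subtracted, for miR-302d-3p (-0.20) with Ct 32 or later missing, and for miR-302d-3p (-0.20) and miR-376b-5p (-0.13) with CD 1 and CD 2 left out, where 2 microRNAs were called; the cause was not tested. Same-numbered UL and CD pools deviated together with r of -0.06, 0.20 and 0.21 over 495 microRNAs. Between pools of different number r was -0.25 to 0.05. The numbers were not taken to pair the pools, and these values do not settle whether they do. With the replicate block 2 microRNAs were called. Late cycles, where the spread between pools was wider, limit what the larger differences show.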
